A study of Mus musculus with 32 samples.

Results

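The postsynaptic density is the protein mesh under the membrane of an excitatory synapse, and its core scaffold is built in layers. Discs large proteins (the Dlg family) hold glutamate receptors and adhesion proteins near the membrane, Dlg-associated proteins (Dlgap) tie them to Shank proteins below, and Homer proteins link Shank to metabotropic glutamate receptors and calcium stores. The genes described here are 9 genes of these 4 families, Dlg2, Dlg3, Dlg4, Dlgap1, Dlgap3, Shank1, Shank3, Homer1 and Homer2, chosen by their symbols. Of the 25697 probes on the array, 10 carried 1 of these symbols, and they measured 7 of the 9 genes. Shank1 and Homer2 were not analysed here.

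Labelled cRNA from the frontal cortex (FCtx) of each of 32 female F1 mice was hybridized to its own Illumina MouseRef-8 v2.0 array, with 8 arrays on each of 4 chips. The 20 ethanol-treated mice drank voluntarily from bottles of 20% ethanol and of water in limited sessions in the dark over 20 days, and the 12 others were matched controls with no treatment in the labels. All mice are labelled as C57BL/6J x FVB/NJ F1, whereas the study's methods name both directions of the cross, and their age at the start of drinking is not given in the sources used here. Chips 1 and 2 each held 8 ethanol-treated mice, chip 4 held 8 controls, and chip 3 held 4 of each, with controls at the even positions (B, D, F, H) and ethanol-treated mice at the odd ones (A, C, E, G).

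An array reads each probe with many beads, and a probe counted as detected on an array when its deposited detection p-value was below 0.01. Between 10644 and 11544 probes were detected on arrays of ethanol-treated mice and between 9480 and 11413 on those of controls, with the lowest number on the array of control mouse C66 on chip 4. Excitatory cortical markers Slc17a7 and Tbr1 were detected on all 32 arrays, and none of the 4 choroid plexus genes measured was detected on enough arrays to be tested. The tissue is a mixture of cells, so fewer cells of a type and less RNA per cell cannot be told apart in any value below.

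The probes decide which transcript was seen, and they are shown first for that reason. All 10 are 50 bases long, and each lies on the chromosome that RefSeq gives for its gene, with Dlg2 on 7, Dlg3 on X, Dlg4 on 11, Dlgap1 on 17, Dlgap3 on 4, Homer1 on 13 and Shank3 on 15. The genome build of the deposited probe coordinates is not named, and 0 of the 10 fell inside the gene's interval in GRCm38, so no coordinates are given. The Dlgap1 probe is shown whole because it spans an exon junction, with its last 35 bases, in capitals, in the exon that starts after a gap of 21978 bases. The Dlgap3 probe, which was called in all 3 comparisons of ethanol-treated mice with controls, and the 4 Homer1 probes, which differ in the variant they were designed on, are given by their first 30 bases in lower case.
Dlgap1, base 2426 of variant 2: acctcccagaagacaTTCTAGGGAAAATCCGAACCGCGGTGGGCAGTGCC
Dlgap3, base 3932: tgggcttcgtggggatcaagcttcgtggct
Homer1, base 33 of variant L: atttttattcaagtgcacgtcgcgttgggt
Homer1, base 906 of variant S: gactgaattactatatttccattatctatg
Homer1, base 2397 of variant d: ggtcaagccgagaggactgcatctaaattg
Homer1, base 2719 of variant d: gtgaagagggttcttcttagtgtatgcttg
The variant names are those of the array's own definitions, and the number is the position on that transcript at which the probe starts. Along chromosome 13 the probe at base 906 lies 51387 bases after the probe at base 33, and the probes at bases 2397 and 2719 lie 98408 and 98730 bases after it.

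The scaffold probes fell into those read on nearly every array and those near background. Dlg2, Dlg3, Dlg4, Dlgap3 and the Homer1 probes at bases 2397 and 2719 were detected on all 32 arrays. Dlgap1 was detected on 29 of 32 arrays, on all 20 of the ethanol-treated mice and 9 of the 12 of controls, and the 3 arrays without detection were all on chip 4. Shank3 and the Homer1 probes at bases 33 and 906 were each detected on 1 of 32 arrays, so those transcripts were not well above background and no fold change is given for them. Shank3 signals ran from 153 to 183 in ethanol-treated mice and from 152 to 188 in controls, the Homer1 probe at base 906 from 157 to 197 and from 147 to 182, and the Homer1 probe at base 33 from 146 to 199 and from 123 to 175. At all 3 probes these signal ranges of the groups overlapped. After normalization the Homer1 probe at base 906 did not overlap between the groups on chip 3, at 7.33 to 7.49 against 7.22 to 7.30 in controls. In a fit of all probes it was not called there (adjusted p = 0.256, limma), and near background no higher level is read from it. After normalization, 8 of 20 ethanol-treated mice were below the lowest control for Shank3, and on chips 1 and 2 12 of 16 were below the lowest chip 4 control. In a fit of all probes, Shank3 was called lower over all arrays (adjusted p = 0.0619) and between chips (adjusted p = 0.0251) (limma). It was not called within chip 3 (adjusted p = 0.955, limma). The median deposited signal was 166 in ethanol-treated mice and 159 in controls, the other way round. The highest control level after normalization, 7.73, was that of mouse C66, whose array had the fewest detected probes. With the probe near background, no lower level of Shank3 is read from these values. For the 7 probes detected on at least 24 arrays, the standard error over beads had a median between 4.9% and 6.2% of the signal, from 23 to 56 beads on an array.

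**Figure D1:**
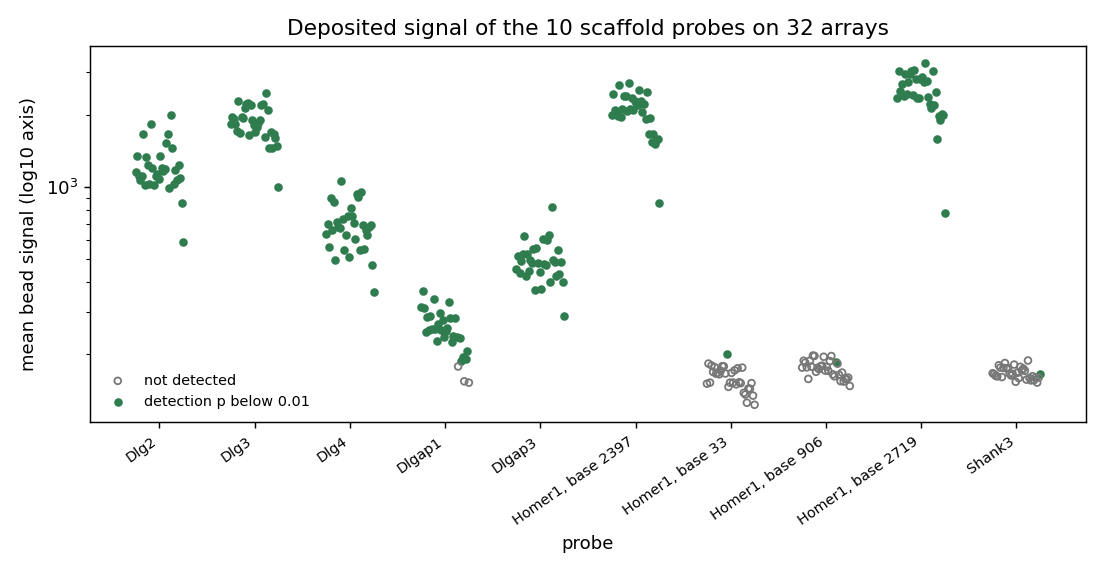
Deposited mean bead signal (log10 axis) of the 10 scaffold probes, 1 point per array for 32 arrays; filled points have a detection p-value below 0.01. Shank3 and the Homer1 probes at bases 33 and 906 are filled on 1 array each. Signals are not normalized, so brightness is not directly comparable between arrays or between probes. The median signal of an array ran from 166 to 203 in ethanol-treated mice and from 146 to 187 in controls.

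The first comparison asked whether scaffold genes differed between ethanol-treated mice and controls over all arrays. Dlgap1 and both detected Homer1 probes were higher in ethanol-treated mice, Dlgap3, Dlg2 and Dlg4 were lower, and Dlg3 did not pass the test. Levels are normalized values on a log2 scale, and a probe is called at an adjusted p below 0.10 (FDR below 10%) in limma over the 10187 probes detected on at least 24 arrays. Of the 7 scaffold probes tested 6 were called, 3 higher and 3 lower, where 25.5% of all probes tested were called, 12% higher and 13.5% lower. Those were 1222 probes higher and 1375 lower, and with median scaling 962 higher and 164 lower. At an FDR below 1%, 2 of the 7 were called against 8.18% of all probes. The median size of the difference was 0.22 over the 7 scaffold probes and 0.066 over all probes tested. Medians of the signed differences were -0.08 and -0.004. The genes were chosen with earlier results of these data known, and both Homer1 probes are among the 6 called. These counts and sizes are therefore a description and not a test of the set.

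Within the Dlg family, the receptor-anchoring scaffolds of the outer layer, 2 of 3 members fell. Dlg2 (PSD-93) had a lowest, median and highest level of 9.91, 10.07 and 10.59 in ethanol-treated mice and 9.86, 10.40 and 10.80 in controls. Its means were 10.11 ± 0.18 (SD, n = 20) and 10.36 ± 0.27 (SD, n = 12), a difference of -0.24 (SE 0.07, adjusted p = 0.0154, limma). The groups overlapped over most of their range, although 18 of 20 ethanol-treated mice lay below the control median.

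Dlg4 (PSD-95, the most studied member of the family) ran from 8.89 through a median of 9.23 to 9.77 in ethanol-treated mice and from 8.96 through 9.55 to 9.81 in controls. The difference was -0.22 (SE 0.08, adjusted p = 0.0464, limma), between means of 9.27 ± 0.23 (SD, n = 20) and 9.49 ± 0.24 (SD, n = 12). Here 17 of 20 ethanol-treated mice were below the control median, and only 1 was below the lowest control. Dlg3 (SAP102, prominent early in development) ran from 10.66 through 10.80 to 11.005 against 10.53 through 10.91 to 11.21, and its difference of -0.08 (SE 0.06, adjusted p = 0.369, limma) did not pass. The call of Dlg2 and of Dlg4 ended when arrays were scaled by their medians in place of quantile normalization, with differences of -0.16 (adjusted p = 0.306) and -0.15 (adjusted p = 0.399).

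The 2 members of the Dlgap family, the adaptors between Dlg and Shank, moved in opposite directions. Dlgap3 (SAPAP3, best known from the compulsive grooming of mice that lack it) had levels of 8.42, 8.73 and 8.97 (lowest, median, highest) in ethanol-treated mice and 8.72, 9.07 and 9.49 in controls. Every one of the 20 ethanol-treated mice was below the control median and 9 were below the lowest control. The means of 8.73 ± 0.16 (SD, n = 20) and 9.05 ± 0.19 (SD, n = 12) differed by -0.33 (SE 0.06, adjusted p = 3.0e-04, limma), a 1.25-fold lower level. That size ranked 150 of the 10187 probes tested.

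Dlgap1 (SAPAP1, also called GKAP) had levels of 7.56, 7.96 and 8.22 in ethanol-treated mice and 7.31, 7.63 and 7.88 in controls. In 19 of 20 ethanol-treated mice it was above the control median, and in 11 it was above the highest control. The difference was 0.31 (SE 0.06, adjusted p = 8.6e-04, limma), between means of 7.93 ± 0.20 (SD, n = 20) and 7.61 ± 0.16 (SD, n = 12). The probe read signals of only 226 to 367 in ethanol-treated mice and 152 to 257 in controls, close to background, and the estimate grew to 0.58 when background was subtracted by normexp before taking logs.

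Homer1, which binds Shank and group 1 metabotropic glutamate receptors, was higher at both detected probes. At base 2719 the levels were 11.01, 11.33 and 11.53 in ethanol-treated mice and 10.81, 11.08 and 11.42 in controls. At base 2397 they were 10.79, 11.03 and 11.25 against 10.70, 10.90 and 11.15. At each of the 2 probes 19 of 20 ethanol-treated mice lay above the control median, and 5 and 4 of them above the highest control.

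The differences at the Homer1 probes were 0.19 (SE 0.06, adjusted p = 0.0145) at base 2719 and 0.14 (SE 0.05, adjusted p = 0.0345) at base 2397 (limma). Median scaling gave 0.25 with an adjusted p of 0.110 at base 2719, which ended that call. It gave 0.21 with an adjusted p of 0.0975 at base 2397, which stayed called just below the threshold. With chip as a random block both calls ended, with adjusted p-values of 0.113 and 0.217, as they did with chip as a fixed block, with 0.510 and 0.858. Both probes were designed on the same variant, 322 bases apart, so they are repeat readings of 1 gene and not separate genes. Whether they also read other variants is not given in the sources used here.

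**Figure D2:**
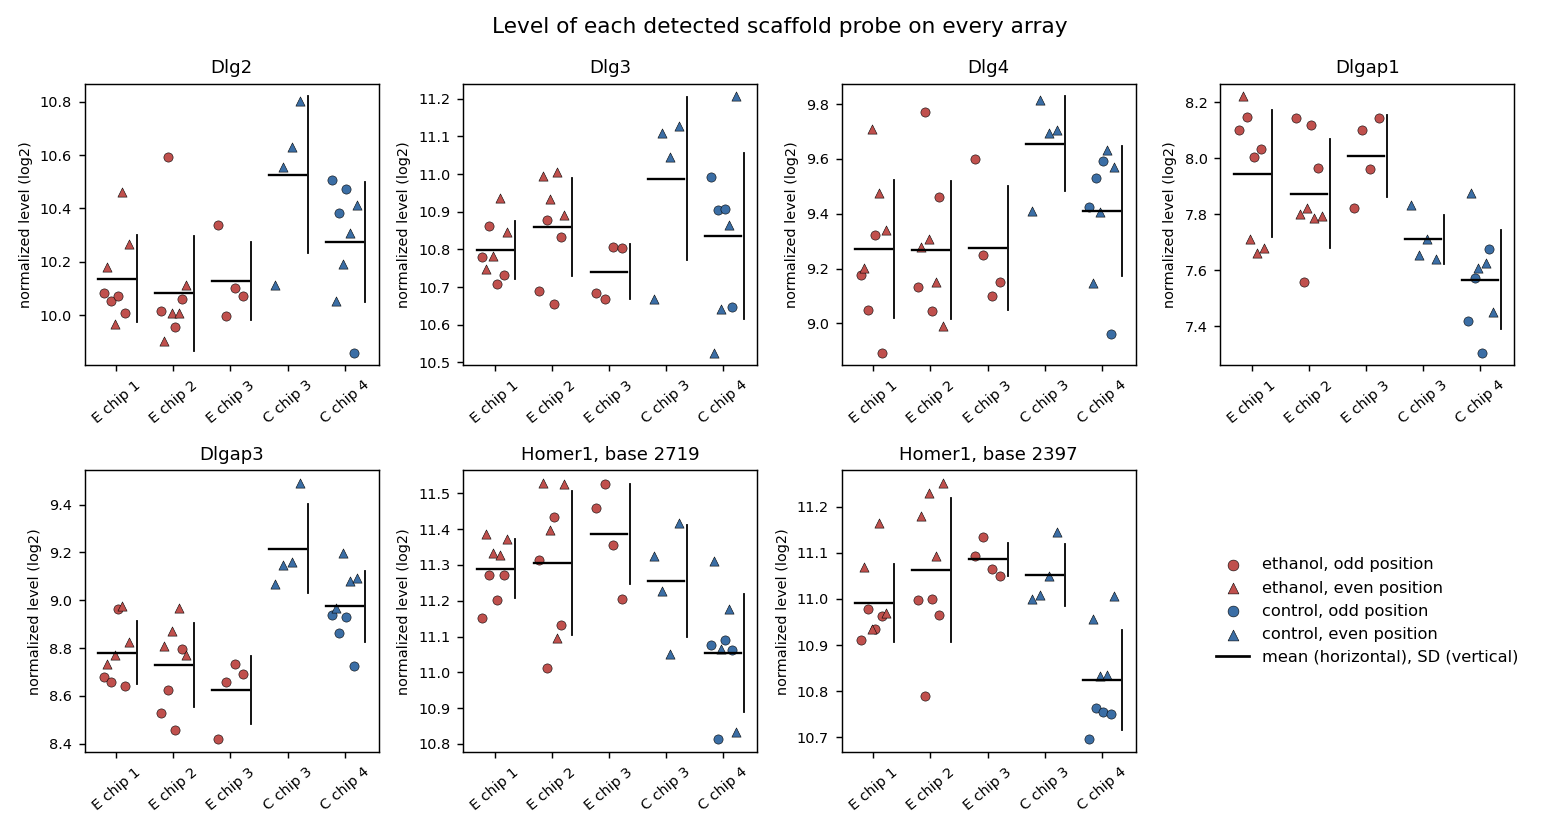
Normalized level (log2) of each of the 7 tested scaffold probes on every array, for ethanol-treated mice (E) on chips 1, 2 and 3 and controls (C) on chips 3 and 4; circles are odd and triangles even positions, the horizontal bar is the mean and the vertical bar the SD. Dlgap3 is separate between the groups on chip 3 (8.42 to 8.73 against 9.07 to 9.49), and the Homer1 probe at base 2397 is lowest in the controls of chip 4.

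The all-array comparison mixes 2 kinds of evidence, because only chip 3 held both groups. Chip 3 was therefore compared on its own, with the spread taken from all 5 combinations of chip and group. Dlgap3 and Dlg2 were lower in the ethanol-treated mice of chip 3 and the remaining 5 probes did not pass, so 2 of 7 scaffold probes were called where 6.22% of all probes tested were. The median size was 0.30 over the scaffold probes and 0.09 over all probes tested. On this chip treatment coincides with odd and even position, and the 2 cannot be told apart there.

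Dlgap3 read 8.42, 8.66, 8.69 and 8.73 in the 4 ethanol-treated mice of chip 3 and 9.07, 9.15, 9.16 and 9.49 in its 4 controls. The groups did not overlap. The difference of -0.59 (SE 0.10, adjusted p = 0.0050, limma) is a 1.51-fold lower level and ranked 30 of 10187 in size. It stayed between -0.64 and -0.50 when each of the 8 arrays was left out in turn, with adjusted p-values from 0.0087 to 0.032.

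Dlg2 read 9.997, 10.07, 10.10 and 10.34 in the ethanol-treated mice of chip 3 and 10.11, 10.56, 10.63 and 10.80 in its controls. One control, mouse C52, fell among the ethanol-treated mice, and the other 3 were above all of them. The difference of -0.40 (SE 0.13, adjusted p = 0.0940, limma) was near the threshold and lost its call when any 1 of the 7 arrays other than that of C52 was left out, with adjusted p-values up to 0.264.

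Dlg4 and Dlg3 had the same layout as Dlg2. Dlg4 read 9.10, 9.15, 9.25 and 9.60 against 9.41, 9.69, 9.70 and 9.81, a difference of -0.38 (SE 0.15, adjusted p = 0.153, limma). Dlg3 read 10.67, 10.69, 10.80 and 10.81 against 10.67, 11.04, 11.11 and 11.13, a difference of -0.25 (SE 0.10, adjusted p = 0.183, limma). In both genes the lowest control was again mouse C52, and without its array Dlg3 reached -0.35 with an adjusted p of 0.060.

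Dlgap1 on chip 3 read 7.82, 7.96, 8.10 and 8.14 in ethanol-treated mice and 7.64, 7.66, 7.71 and 7.83 in controls, overlapping at 1 value. Its difference of 0.30 (SE 0.12, adjusted p = 0.163, limma) was about as large as over all arrays, with a larger standard error. Homer1 at base 2719 read 11.21, 11.36, 11.46 and 11.53 against 11.05, 11.23, 11.33 and 11.42, and at base 2397 it read 11.05, 11.07, 11.09 and 11.13 against 11, 11.01, 11.05 and 11.15. The Homer1 differences of 0.13 (SE 0.10, adjusted p = 0.510) and 0.03 (SE 0.08, adjusted p = 0.858) did not pass (limma). Data were also simulated with 200 of 10187 probes changed and no effect of chip or position. There 2% of probes changed by 0.2 were called on chip 3, against 47% at 0.3 and 85.5% at 0.4. These shares depend on how many probes change and on the spread of each. How often a shift of the size of Homer1's would be missed here was not tested, and a missing call is not read as no difference.

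The other comparison set the 16 ethanol-treated mice of chips 1 and 2 against the 8 controls of chip 4, where odd and even positions are balanced but chip and group cannot be told apart. Dlgap1 and both Homer1 probes were higher and Dlgap3 was lower, 4 of 7 called where 35.4% of all probes tested were. Dlgap1 differed by 0.34 (SE 0.07, adjusted p = 7.6e-04), Homer1 by 0.24 (SE 0.06, adjusted p = 0.0046) at base 2719 and 0.20 (SE 0.05, adjusted p = 0.0023) at base 2397, and Dlgap3 by -0.22 (SE 0.06, adjusted p = 0.0101) (limma). Dlg2 differed by -0.16 (adjusted p = 0.139), Dlg4 by -0.14 (adjusted p = 0.275) and Dlg3 by -0.007 (adjusted p = 0.951), none of which passed.

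On chips 1 and 2 Homer1 at base 2719 was above the highest chip 4 control in 9 of 16 ethanol-treated mice, and Dlgap1 in 8. Dlgap3 was below the lowest chip 4 control in 6 of 16. At odd positions alone Dlgap1 differed by 0.52 (adjusted p = 0.0037), and at even positions alone by 0.17 (adjusted p = 0.268). Dlgap3 lost its call with median scaling in this comparison, at -0.10 (adjusted p = 0.443), and at odd positions alone, at -0.20 (adjusted p = 0.112).

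The estimate from chip 3 and the one between chips were then set against each other in the same fit. Dlgap3 was the 1 scaffold probe of 7 for which they differed, by -0.37 (SE 0.12, adjusted p = 0.0478, limma), with 15.9% of all probes tested called. The estimate was the more negative on chip 3, where the ethanol-treated mice were at odd positions. With odd or even position as a covariate the difference of the estimates was -0.18 (adjusted p = 0.421, limma), which ended the call. For the other 6 probes the difference of the estimates ran from -0.24 to -0.05 with adjusted p-values from 0.211 to 0.872.

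**Figure D3:**
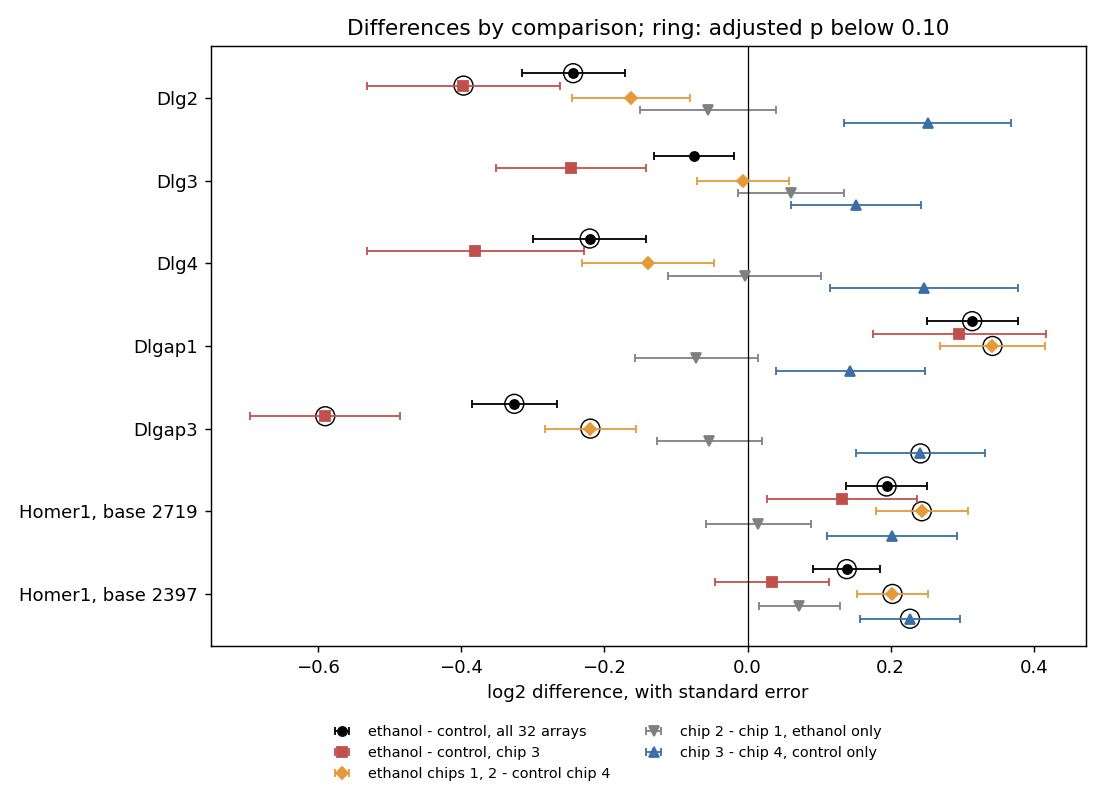
Log2 difference with its standard error for each tested scaffold probe in 5 comparisons, with a ring where the adjusted p is below 0.10. Dlgap3 lies below 0 and Dlgap1 above 0 in all 3 comparisons of ethanol-treated mice with controls, whereas all 7 probes lie above 0 between the controls of chips 3 and 4.

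Chips that held the same group were compared as well. Between chips 2 and 1, both of ethanol-treated mice, 0 of 7 scaffold probes were called and 0 had an unadjusted p below 0.05 (limma), nor were any called under the 6 alternatives tried there, with 3.74% of all probes called and differences from -0.07 to 0.07. Between the controls of chips 3 and 4 all 7 were higher on chip 3, by 0.14 to 0.25, and 2 were called where 20.7% of all probes were. Those 2 were Homer1 at base 2397, by 0.23 (SE 0.07, adjusted p = 0.0238), and Dlgap3, by 0.24 (SE 0.09, adjusted p = 0.068) (limma). The controls of chip 3 were all at even positions and those of chip 4 at both, so this comparison mixes chip and position. With position as a covariate the differences were 0.14 (adjusted p = 0.12) and 0.15 (adjusted p = 0.269), and 0 of 7 probes were called.

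Homer1 at base 2397 thus stood at 11.05 ± 0.07 (SD, n = 4) in the controls of chip 3 and 10.82 ± 0.11 (SD, n = 8) in those of chip 4, of which the 4 at even positions had a mean of 10.91 ± 0.09 (SD, n = 4). In ethanol-treated mice it was 10.99 ± 0.08 (SD, n = 8) on chip 1, 11.06 ± 0.16 (SD, n = 8) on chip 2 and 11.09 ± 0.04 (SD, n = 4) on chip 3. The mean of the chip 3 controls lay between those of chips 1 and 2. The part of chip in the Homer1 result cannot be told apart from treatment with these arrays.

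Levels at odd and even positions differed for some of the same probes. Within chips 1, 2 and 4 all mice at odd positions carry lower numbers than those at even ones. Position therefore cannot be told apart from the order of the mice. On chips 1, 2 and 4, where treatment does not vary within a chip, levels at odd positions were lower than at even ones for Homer1 at base 2397, with a difference of -0.17 (SE 0.04, adjusted p = 0.0077), and for Dlgap3, with a difference of -0.19 (SE 0.05, adjusted p = 0.0131) (limma). These were 2 of 7 called, with 20.3% of all probes tested called. Median scaling left 0 of 7, with adjusted p-values of 0.588 for Homer1 at base 2397 and 0.327 for Dlgap3 (limma). On chip 3 the ethanol-treated mice were the ones at odd positions. The difference there with position as a covariate was -0.40 for Dlgap3 (adjusted p = 0.156) and -0.41 for Dlg2 (adjusted p = 0.364). For Homer1 at base 2397 it rose from 0.03 without the covariate to 0.20 with it (SE 0.07, adjusted p = 0.345). At the other tested Homer1 probe it rose from 0.13 to 0.26 (SE 0.11, adjusted p = 0.458). The differences of Dlg3, Dlg4 and Dlgap1 became smaller in size. With the covariate 0 of 7 probes were called (limma). Dlg2 itself differed by 0.02 between odd and even positions (adjusted p = 0.916).

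Across mice the scaffold genes did not vary as 1 block. Levels were centred within each of the 5 combinations of chip and group, and the 21 pairs of the 7 probes were correlated over the 32 arrays, which also share their chips, positions and RNA quality. After Benjamini-Hochberg adjustment over the 21 pairs 6 passed 0.05 in a two-sided permutation test within chip and group (100000 resamples), 3 positive and 3 negative.

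Dlg2 rose and fell with Dlg4 (r = 0.66, adjusted permutation p = 0.00189; rho = 0.63, adjusted permutation p = 0.00266) and with Dlg3 (r = 0.58, adjusted permutation p = 0.0121; rho = 0.55, adjusted permutation p = 0.0142). Dlgap1 ran opposite to all 3 Dlg genes, at r = -0.66 with Dlg4 (adjusted permutation p = 0.00154; rho = -0.65, adjusted permutation p = 0.00266), -0.62 with Dlg2 (adjusted permutation p = 0.00105; rho = -0.58, adjusted permutation p = 0.00473) and -0.58 with Dlg3 (adjusted permutation p = 0.00147; rho = -0.61, adjusted permutation p = 0.00266). Without the 2 arrays farthest from the median of the Dlg gene these were -0.62, -0.57 and -0.51, and the correlations of Dlg2 with Dlg4 and Dlg3 were 0.49 and 0.63. The sixth pair was Dlgap3 with Homer1 at base 2397 (r = 0.49, adjusted permutation p = 0.0362; rho = 0.54, adjusted permutation p = 0.0142), which fell to r = 0.03 when arrays were centred by odd and even position as well. The opposite course of Dlg4 and Dlgap1 was r = -0.73 after that further centring.

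The 2 Homer1 probes, which were designed on the same variant, correlated at r = 0.49 (adjusted permutation p = 0.0511) and rho = 0.46 (adjusted permutation p = 0.0499). This is lower than between Dlg2 and Dlg4, which are different genes. Dlgap1 and Dlgap3 correlated at r = -0.31 (adjusted permutation p = 0.212).

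**Figure D4:**
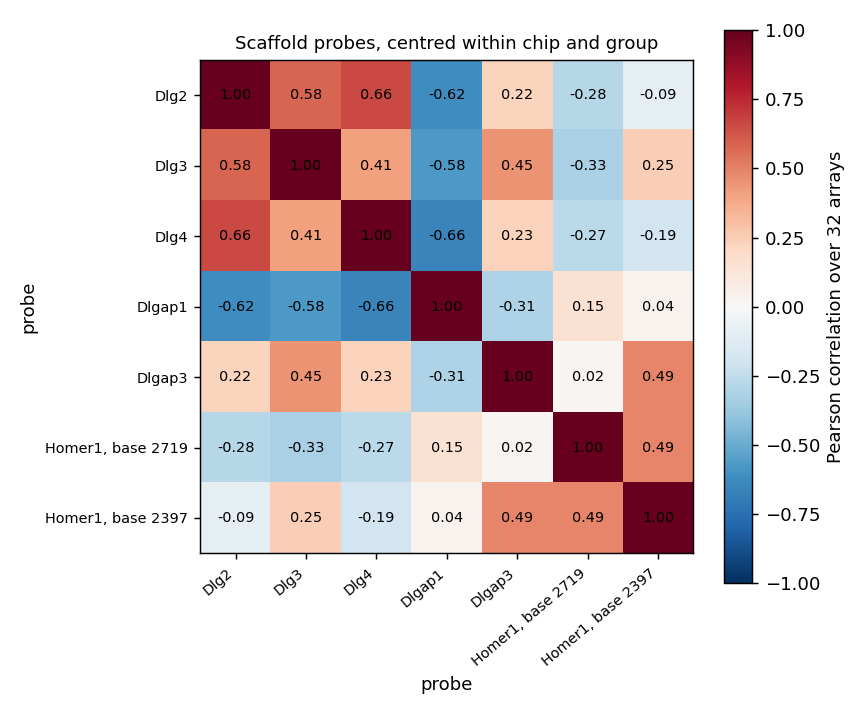
Pearson correlation of each pair of the 7 tested scaffold probes over 32 arrays, with levels centred within each combination of chip and group; colour runs from -1 (blue) to 1 (red). Dlgap1 is negative with Dlg2 (-0.62), Dlg3 (-0.58) and Dlg4 (-0.66), which are positive with each other.

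Outside the scaffold families, the probes that varied most like each scaffold probe were found by the same centred correlation against all other genes tested, as a description. Nearest to Dlg2 were Pigt (0.88), Islr2 (0.78) and Ap2b1 (0.77). Dlg3 was nearest to Icmt, Extl3 and Coro2b (0.81 each), and Dlg4 to Setd5 (0.77), Pi4ka (0.76) and LOC100046744 (0.73). Dlgap1 was nearest to BC030499 (0.81), Mapk8ip1 and Nipa1 (0.79 each), and Dlgap3 to Camkk1 (0.79), Bcor (0.76) and Zfyve1 (0.73). The Homer1 probes had different neighbours, with Hprt1, Nars and Rabep1 (0.65 to 0.69) at base 2719 and A430005L14Rik, Prkar1b and Pfkp (0.75 to 0.78) at base 2397.

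The partners of the scaffold were taken from lists and read by the probe of each gene with the highest mean. Receptors and adhesion proteins had 3 of 9 tested genes higher and 0 lower over all arrays, with a median difference of 0.08. That count, like those of the next 2 lists, is close to the 25.5% of all probes called, and nothing is read from it about the list. The 3 were the AMPA receptor subunits Gria2 (0.29, adjusted p = 0.0031) and Gria3 (0.24, adjusted p = 0.0182) and the AMPA receptor auxiliary subunit Cacng3 (0.21, adjusted p = 0.0743) (limma). None of these 3 passed within chip 3, where they differed by 0.12, 0.06 and 0.02 and where 0 of the 9 were called. Grin1, the obligatory NMDA receptor subunit, differed by -0.04 over all arrays (adjusted p = 0.760).

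Signalling partners and enzymes had 0 of 12 tested genes higher and 3 lower, with a median of -0.03. They were Arc, an activity-induced gene that acts in AMPA receptor endocytosis (-0.51, adjusted p = 0.0020), the Arf exchange factor Iqsec2 (-0.24, adjusted p = 0.0085) and the membrane-associated guanylate kinase Mpp2 (-0.19, adjusted p = 0.0190) (limma). Arc also belongs to the immediate early genes, of which 4 of 9 tested were lower and 0 higher, against 25.5% of all probes called. With median scaling 2 of the 9 were lower, and 0 were called within chip 3. With median scaling, Arc alone of the 3 stayed below the threshold (-0.44, adjusted p = 0.0346) and the median of the list was 0.02. The direct relatives Dlgap2 (-0.08, adjusted p = 0.253) and Dlgap4 (-0.10, adjusted p = 0.153) did not pass, and they were the 2 tested of the 4 relatives measured.

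Links to actin and motors had 2 of 10 tested genes higher and 1 lower, with a median of 0.05. Both dynein light chains passed in opposite directions, Dynll2 at 0.32 (adjusted p = 0.0094) and Dynll1 at -0.13 (adjusted p = 0.0143), and Abi2, of the actin-regulating WAVE complex, was higher by 0.13 (adjusted p = 0.0319) (limma). Within chip 3 the only gene called in any of these lists was the motor Myo5a, which differed by -0.25 (adjusted p = 0.049) there and by 0.22 (adjusted p = 3.6e-04) between chips (limma). With median scaling Dynll2 was the 1 gene of these links called over all arrays (0.39, adjusted p = 0.0120), and Myo5a was not called on chip 3.

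Cell type markers moved together with Dlgap3 and Dlg2 on chip 3. Mean levels of 6 cortical neuron genes were 12.13 to 12.25 in the ethanol-treated mice of chip 3 and 12.37 to 12.51 in its controls, without overlap, and 2 of the 6, Slc17a7 (-0.46, adjusted p = 0.0281) and Tbr1 (-0.54, adjusted p = 0.0155), were lower (limma). Over all arrays the same list had 3 of 6 lower and ran from 12.06 to 12.33 against 12.14 to 12.51. Of all probes tested, 6.22% were called on chip 3 and 25.5% over all arrays. The probes of Snap25 and Neurod6, which define neurons in that list, were detected on 0 arrays. Camk2a, itself a postsynaptic kinase, is in both the neuronal and the partner list.

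The mean of 8 olfactory bulb genes was 9.66 to 9.92 in the ethanol-treated mice of chip 3 against 8.82 to 9.42 in its controls, again without overlap, although none of the 8 was called, and it spanned 8.71 to 10.58 and 8.68 to 10.23 over all arrays. The bulb's defining gene Tbx21 was detected on 1 array and Eomes on 8, whereas Pcdh21 was detected on 31, Doc2g on 27 and Calb2 on 32. On chip 3 Pcdh21, Doc2g and Calb2 differed by 1.55, 0.82 and 1.31 (adjusted p = 0.209, 0.201 and 0.190, limma). The differences of the 8 genes there ran from 0.16 (Th) to 1.55, with a median of 0.52. Between chips their median was 0.05. On chip 3, 6 interneuron genes ran from 11.80 to 11.85 against 11.61 to 11.70, with 2 higher, 9 astrocyte genes from 9.94 to 10.001 against 9.74 to 9.83, with 2 higher, and 10 oligodendrocyte genes from 9.98 to 10.18 against 10.10 to 10.86, with 3 lower. Microglial genes on chip 3 (8.51 to 8.67 against 8.54 to 8.65), 4 striatal genes (8.58 to 8.79 against 8.69 to 9.04) and 3 blood genes (9.40 to 9.84 against 9.31 to 10.19) overlapped, and none was called there. The share of all probes tested that were called on chip 3 was 6.22%. Between chips, where 35.4% of all probes were called, 0 interneuron genes were higher and 2 lower. Of the astrocyte genes 2 were higher and 2 lower there, and 0 oligodendrocyte genes were called. Median differences of the interneuron, astrocyte and oligodendrocyte genes were 0.15, 0.23 and -0.37 on chip 3 and -0.08, 0.05 and 0.06 between chips. With median scaling 1 cortical neuron gene and none of the interneuron, astrocyte and oligodendrocyte genes was called on chip 3. On chips 1, 2 and 4 the median difference between odd and even positions was 0.34 over the olfactory bulb genes and -0.15 over the oligodendrocyte genes. It was -0.12 over the cortical neuron genes, 0.04 over the interneuron genes and 0.03 over the astrocyte genes. The ethanol-treated mice of chip 3 were at odd positions, and the part of position in the marker differences there was not tested. The part of these markers in the scaffold differences was not tested.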

How the data were processed

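Arrays of 32 mice were assigned to groups, chips and positions from the labels, with 0 columns unmatched. The authors deposited values that are not normalized. The deposited intensities are mean bead signals on a linear scale. Each signal comes with a deposited detection p-value, a comparison with negative control beads, and with other deposited values, its bead number and bead standard error. Background handling by the scanner software is not given in the sources used here. Deposited gene symbols were used as they stand.

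From these, a variance-stabilizing transform built from bead standard errors, then quantile normalization, were computed in R 4.3.3, after the transform and normalization that the study's methods name. Probes detected (p-value below 0.01) on 24 arrays or more (75%) were compared by limma 3.58.1 and adjusted by Benjamini-Hochberg. The model has no covariate, or 5 cells of chip and group for contrasts within and between chips. The spread is that between mice; the precision is limited by the number of arrays. Scripts were tested on simulated data, where 95% of probes changed by 0.3 were called over all arrays. Correlations used Python 3.11.15 with scipy 1.17.1, numpy 2.4.6 and pandas 2.3.3, and figures matplotlib 3.10.9.

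The named genes are all probes of the 9 symbols, at most 3 called genes per direction in each partner list, and the 3 nearest probes by correlation. Members and lists were chosen with earlier results of these data known. Alternatives were the transform, background, scaling, dim-probe filter, chip, position, array weights, thresholds and left-out arrays.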

Additional observations from a re-analysis of the deposited data

Results flagged for a closer look

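In 50 groups of 8 or 4 arrays, 2 had an array far from the others by Dixon's criterion, which chance alone meets in about 1 group in 20. Ethanol-treated mouse A29 on chip 2 had a Dlg2 level of 10.59, with the nearest of its 8 arrays at 10.11. The same mouse had the highest Dlg4 level of chip 2 (9.77) and the lowest Dlgap1 (7.56). Control mouse C66 on chip 4 had a Shank3 level of 7.73, with the nearest at 7.36. It was the 1 array of 32 on which the Shank3 probe was detected, and the array with the fewest detected probes.

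For Dlgap3, the ethanol difference within chip 3 and the one between chips differed by -0.37 (SE 0.12, adjusted p = 0.0478, limma), with the more negative estimate on chip 3. With odd or even position as a covariate it was -0.18 (adjusted p = 0.421, limma).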

How the results depend on the processing

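Over all arrays, where 6 scaffold probes were called, median scaling left 3, an FDR below 1% left 2, chip as a fixed block left 2, chip as a random block left 3, and chip with position left 0. Chip as a fixed block, with or without position, gives the difference within chip 3 and repeats the results given for that chip. With chip as a random block Dlg4 (adjusted p = 0.116) and both Homer1 probes (adjusted p = 0.113 and 0.217) lost their calls. The median difference of all probes was 0.048 with median scaling and -0.004 without, and median scaling gave 962 higher and 164 lower calls, against 1222 and 1375. Within chip 3, where 2 were called, normexp, median scaling and testing all probes each left 1, position as a covariate left 0, the 8 arrays of chip 3 alone gave 5, and leaving out an array gave 1 to 3. Only without control mouse C52 were there 3. Median scaling gave 2 in place of 1 for the difference of the estimates, 5 in place of 2 between controls of chips 3 and 4 (all probes gave 1), and 0 in place of 2 for position. Dlg3 between chips turned from -0.007 to 0.11 with median scaling, 0.046 without control mouse C66 and 0.082 at even positions. Leaving out C66 changed no call over all arrays or between chips. Of the differences of single probes under alternatives, 229 kept direction and side of the threshold, 41 lost a call and 4 gained one. Position as a covariate, added after seeing the data, left 0 in place of 1 for the difference of the estimates and 0 in place of 2 between controls of chips 3 and 4. Median scaling of the pathway and marker lists, also added then, left 3, 1 and 1 called receptor, signalling and actin genes over all arrays, and 1 cortical neuron gene within chip 3. No paired analysis was possible because mouse numbers are not shared between the groups.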
